A study of Vitis vinifera with 27 samples.

Results

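The NAC transcription factors of the grape berry are described here, as the genes whose closest protein in the deposited annotation is named a NAC domain or NAC transcription factor protein. Of 28940 genes in the table, 25 met that rule, and the annotation numbers them after related proteins (NAC72, NAC29 and so on, with "like" for the looser matches). Of the 25, 14 reached an FPKM of at least 1 in at least 3 of 27 libraries and were among the 19761 genes tested. FPKM is the number of fragments scaled to transcript length and to the mapped reads of the library, so levels can be compared between genes. Members were grouped by role from the annotation number alone, read as an Arabidopsis NAC number and without a phylogeny. Tested were 5 of 11 stress and senescence members and 6 of 6 members numbered like membrane-bound NACs. So were 1 of 3 organ boundary and root members, 2 of 4 others and 0 of 1 secondary wall member. The Arabidopsis relatives named below rest on the same numbers. Promoter and protein sequences of these genes were not used here.

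The berries came from field-grown Cabernet Sauvignon, a red wine cultivar of Vitis vinifera, and the question was how sunlight on the bunches changes gene expression during ripening. In LR-V vines the basal leaves of fruiting shoots were cut off at véraison, the onset of ripening, in LM-V vines the same leaves were tied aside and kept, and C vines were left untreated. Berries were taken at E-L 36 (mid-ripening), E-L 37 (not quite ripe) and E-L 38 (harvest ripeness), which gives 9 groups of 3 biological replicates, named A, B and C, each of berries from 15 vines. RNA was extracted from 50 deseeded berries per replicate, so the p-values measure the spread between these vine plots in 1 season, and in a whole-berry extract fewer cells of a type and less RNA per cell cannot be told apart.

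NAC proteins are a family of plant transcription factors named for NAM, ATAF and CUC, which share a DNA-binding domain at the start of the protein and differ in the region that activates transcription. Members act in drought and abscisic acid responses, in the senescence of leaves, in fruit ripening, in the founding of organ boundaries and roots and in the building of xylem walls. Some are made with a membrane anchor and move to the nucleus only after the anchor is cut.

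Summed FPKM lay between 600395 and 690035, but FPKM is already scaled to mapped reads, so the sum does not measure library size. Estimated depth relative to the first C library of E-L 36 was between 0.916 and 1.037. Correlations of log2 values within groups were between 0.941 and 0.982. Absolute read counts were not part of the table, so depth itself is unknown. The deseeded berries were not all free of seed RNA. The mean log2(FPKM + 1) of a 2S albumin and a vicilin gene, both seed storage proteins, was above 3 in 6 libraries, namely LR-V replicate A at E-L 36, at E-L 37 LR-V replicates B and C and replicate B of LM-V, and LR-V replicates A and C at E-L 38, whereas it reached at most 1.74 in C. Summed FPKM of 9 green tissue genes (light-harvesting and Rubisco small subunit proteins) at E-L 38 was 318, 158 and 455 in LR-V berries, 125, 135 and 106 in LM-V berries, and 60.4, 54.7 and 62.1 in C. At E-L 36 it was 458, 378 and 301 after LR-V, 291, 219 and 212 after LM-V, and 207, 149 and 185 in C, and at E-L 37 it was between 170 and 197 after LR-V, between 131 and 153 after LM-V, and between 106 and 149 in C. LR-V lay above C at every stage. Of the 7 green genes tested 2, 0 and 5 were called higher in LR-V than in C at E-L 36, 37 and 38. Of all tested genes 5.54%, 5.01% and 17.8% were called there. In LM-V 0, 0 and 2 green genes were called higher than in C, beside 0.0708%, 0.572% and 9.5% of all. The part of these genes in the NAC results was not tested. Berry ripening genes such as expansins and polygalacturonases (52 genes, 27 of them tested) summed to between 16148 and 22093 FPKM at E-L 36, between 10321 and 14225 at E-L 37 and between 5452 and 9030 at E-L 38. Results that rest on the 6 seed-rich libraries are given without them as well. That leaves 1 LR-V library at E-L 37 and 1 at E-L 38, each taken to vary like the other groups.

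A few genes made up most of the NAC message. NAC72 (VIT_219s0014g03290) averaged 224 FPKM over the 27 libraries, the NAC78-like gene VIT_213s0019g05240 averaged 156 and NAC29 (VIT_201s0146g00280) averaged 72.6. Next came NAC2-like (VIT_218s0001g02300) at 24.3, NAC21/22-like (VIT_219s0027g00230) at 16.1 and the NAC68-like gene VIT_202s0012g01040 at 14.7 FPKM. NAC68 genes VIT_214s0068g01490 and VIT_218s0001g10250 averaged 10.0 and 9.35 FPKM, and NAC8-like (VIT_201s0011g02990) 7.75. The remaining tested genes were lower, at 2.69 FPKM for NAC18 (VIT_206s0080g00970), 2.45 for a NAC78-like gene (VIT_213s0019g05230), 1.54 for NAC42 (VIT_212s0028g00860), 0.832 for the putative NAC94 (VIT_203s0038g03410) and 0.709 for a NAC68-like gene (VIT_204s0044g01500). The 2 NAC78-like genes share 1 closest protein and carry neighbouring identifiers, so how reads were divided between them is uncertain.

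**Figure D1:**
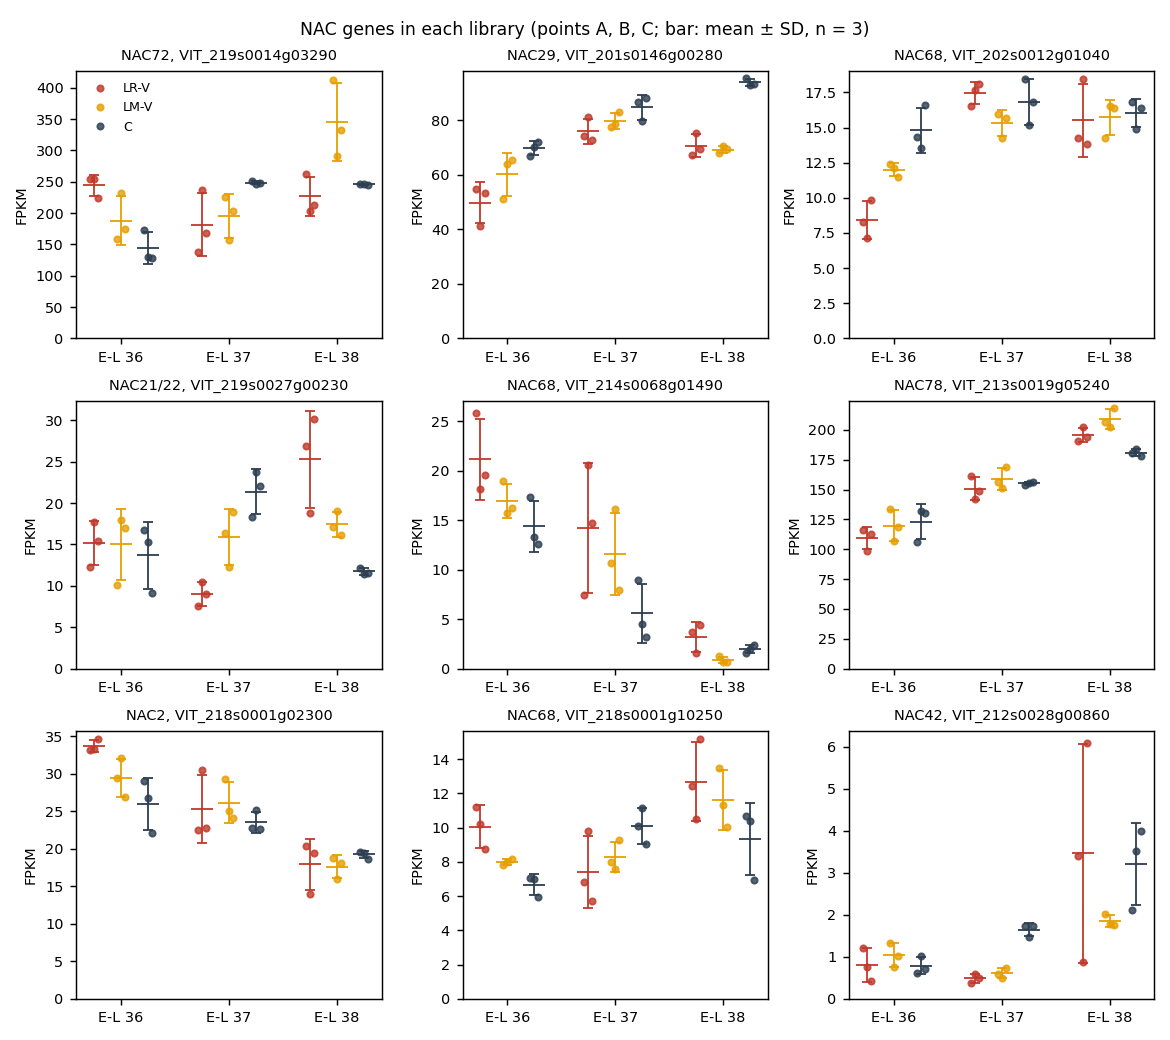
FPKM (vertical axis, from 0) of 9 NAC genes in every library at E-L 36, 37 and 38, with LR-V, LM-V and C side by side at each stage; points are replicates A, B and C, and bars are the mean and SD (n = 3). NAC29 at E-L 38 lies between 67.3 and 75.3 FPKM in LR-V and LM-V and between 93.0 and 95.4 in C, and NAC21/22 in LR-V lies below C at E-L 37 and above it at E-L 38. Titles leave out "like".

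Against the control, leaf removal moved a few NAC genes at each stage and in both directions. At E-L 36, 3 of 14 tested genes passed limma's test at an adjusted p of 0.05, 1 higher (NAC72) and 2 lower (NAC29 and VIT_202s0012g01040) in LR-V, beside 5.54% of all tested genes. At E-L 37, 2 of 14 passed, NAC21/22-like lower and VIT_214s0068g01490 higher, beside 5.01% of all. At E-L 38, 2 of 14 passed, NAC21/22-like higher and NAC29 lower, beside 17.8% of all, so the share of NAC genes at harvest was no larger than the background. The median log2 fold change of the 14 genes was 0.19, -0.05 and 0.18 at E-L 36, 37 and 38, beside 0.02, -0.09 and 0.02 over all tested genes.

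Leaf moving gave fewer calls. In LM-V berries 0 of 14 genes passed at E-L 36, where 0.0708% of all genes did, and 0 of 14 at E-L 37, where 0.572% did. By limma's unadjusted p, 3 and 2 genes were under 0.05 at those stages, and a rebuilt NOISeq rule picked 0 and 1. At E-L 38, 1 of 14 passed (NAC29, lower in LM-V), beside 9.5% of all. The median log2 fold change of the 14 genes was 0.06, -0.14 and -0.06 at the 3 stages, beside -0.01, -0.08 and -0.02 over all tested genes. LR-V and LM-V are set against the same C libraries, so their values are given side by side and not as 2 independent results.

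**Figure D2:**
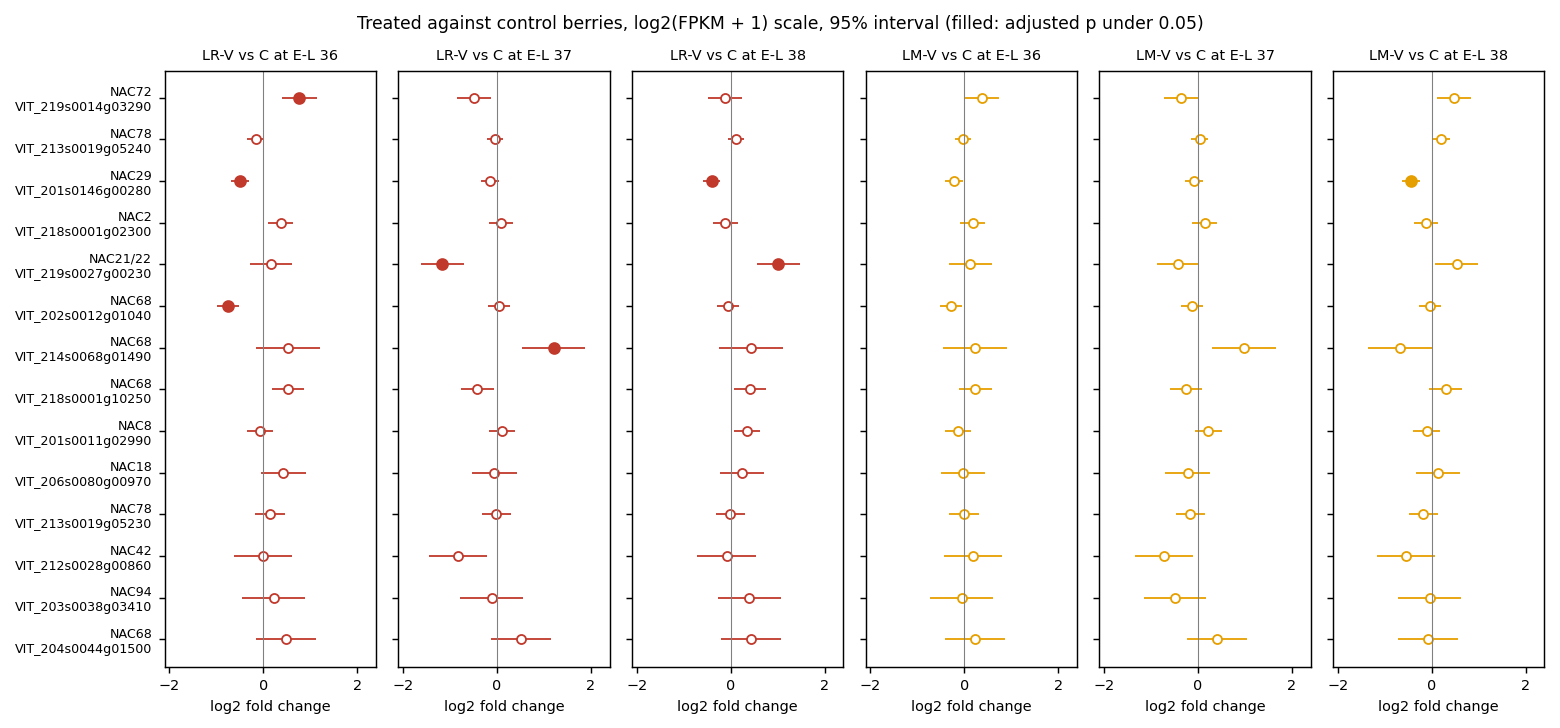
Log2 fold change on the log2(FPKM + 1) scale (horizontal axis) of the 14 tested NAC genes, with LR-V against C in the left 3 panels and LM-V against C in the right 3, at E-L 36, 37 and 38; lines are 95% intervals and filled points passed limma's test. In the LR-V panels 3, 2 and 2 points are filled, and in the LM-V panels 0, 0 and 1.

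NAC72 is related to Arabidopsis RD26, an activator of drought and abscisic acid responses, and was the most abundant of the 25 genes. At E-L 36 it had 254, 254 and 224 FPKM in LR-V berries, 158, 232 and 174 in LM-V berries, and 173, 131 and 128 in C. All LR-V libraries lay above all C libraries, while LM-V overlapped both. Its level in LR-V was 244 ± 17.1 FPKM, against 144 ± 25.4 in C (SD, n = 3 each), a log2 fold change of 0.77 ± 0.17 (SE; adjusted p = 0.0112). Over the alternatives this adjusted p ran between 0.00749 and 0.0636, and it missed the threshold without LR-V replicate B (0.0521), C replicate B (0.0586) or C replicate C (0.0636) of E-L 36.

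At E-L 37 the order was turned round. NAC72 had 139, 236 and 168 FPKM in LR-V berries, 226, 157 and 203 in LM-V berries, and 251, 247 and 248 in C. Every treated library was below every C library, yet neither difference passed (LR-V against C -0.49 ± 0.17, adjusted p = 0.106; LM-V against C -0.36 ± 0.17, adjusted p = 0.409). At E-L 38 NAC72 had 263, 203 and 214 FPKM in LR-V berries, 413, 291 and 332 in LM-V berries, and 247, 247 and 245 in C. The 3 LM-V libraries were the highest of all at harvest, and LM-V against C came to 0.47 ± 0.17 (adjusted p = 0.0979), which did not pass. LR-V was lower than LM-V at E-L 38, with 226 ± 31.6 FPKM after leaf removal and 345 ± 61.9 FPKM after leaf moving (log2 fold change -0.60 ± 0.17, adjusted p = 0.0396). The adjusted p of that difference ran between 0.0164 and 0.196. It was 0.16 without the seed-rich libraries, where the log2 fold change was -0.75, and it missed the threshold with only the compared groups in the fit (0.097) and without LR-V replicate B (0.0889) or C (0.165) or LM-V replicate A (0.196) or C (0.0837) of that stage.

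The LR-V effect on NAC72, which is the log2 difference between LR-V and C at a stage, changed by -1.26 ± 0.25 between E-L 36 and E-L 37 (adjusted p = 0.00582). This contrast was added after the data had been seen, and it passed under all 19 alternatives, with adjusted p between 0.000811 and 0.0225. Between E-L 36 and E-L 38 the LR-V effect fell by 0.90 (SE 0.25, adjusted p = 0.0264). That adjusted p ran between 0.00986 and 0.0692, and it missed the threshold without LR-V replicate A (0.0535) or B (0.0556) or C replicate B (0.0653) or C (0.0692) of E-L 36, or without LR-V replicate B (0.055) or C (0.0609) or C replicate A (0.0541) or B (0.0546) of E-L 38.

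NAC29 is related to Arabidopsis NAP, which drives leaf senescence, and it was lower after both treatments at harvest. At E-L 38 it had 67.3, 75.3 and 69.2 FPKM in LR-V berries, 67.8, 70.5 and 69.3 in LM-V berries, and 95.4, 93.0 and 93.2 in C. Neither treated group overlapped C. The level was 70.6 ± 4.14 FPKM in LR-V, against 93.9 ± 1.33 in C (log2 fold change -0.41 ± 0.09, adjusted p = 0.0034), and 69.2 ± 1.38 in LM-V (-0.43 ± 0.09, adjusted p = 0.00385). LR-V and LM-V differed by 0.03 at that stage, with a 95% interval of -0.16 to 0.22. The LM-V call passed under all 13 alternatives, with adjusted p between 0.00354 and 0.0193. For LR-V the adjusted p ran between 0.00327 and 0.221 and missed the threshold only without the seed-rich libraries (0.221, log2 fold change -0.31), when LR-V replicate B (75.3 FPKM) was left alone.

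At E-L 36 NAC29 had 54.9, 41.2 and 53.2 FPKM in LR-V berries, 51.1, 64.0 and 65.2 in LM-V berries, and 66.9, 70.2 and 71.97 in C. Again every treated library was below every C library, with a log2 fold change of -0.49 ± 0.09 for LR-V (adjusted p = 0.00259) and of -0.22 ± 0.09 for LM-V (adjusted p = 0.639). For LR-V the adjusted p ran between 0.0023 and 0.0608, and it was 0.0608 with only the compared groups in the fit. At E-L 37 the groups overlapped, with 74.0, 81.05 and 72.6 FPKM in LR-V berries, 77.6, 78.4 and 82.8 in LM-V berries, and 86.6, 79.6 and 88.1 in C. Neither treatment passed there (adjusted p = 0.338 for LR-V and 0.745 for LM-V).

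The other stress and senescence members passed no test against C. NAC2-like, related to the Arabidopsis abscisic acid and stress factor ATAF1, had 33.1, 33.2 and 34.6 FPKM in LR-V at E-L 36, 29.4, 32.01 and 26.9 in LM-V, and 29.0, 26.8 and 22.1 in C. LR-V lay above C in every library, but the log2 fold change of 0.37 ± 0.13 missed the threshold (adjusted p = 0.0918). NAC42 is related to Arabidopsis JUNGBRUNNEN1, a factor that delays senescence under oxidative stress. It had 0.37, 0.59 and 0.49 FPKM in LR-V at E-L 37, 0.59, 0.50 and 0.74 in LM-V, and 1.74, 1.46 and 1.73 in C. LR-V and LM-V overlapped and all their libraries lay below C, with -0.83 ± 0.30 for LR-V against C (adjusted p = 0.105). At E-L 38 it had 3.41, 0.88 and 6.09 FPKM in LR-V berries, 2.01, 1.77 and 1.75 in LM-V berries, and 2.12, 3.53 and 4.0 in C, and the 2 high LR-V libraries were seed-rich ones. NAC18, whose Arabidopsis relative acts in seed coat development, stayed between 1.26 and 3.92 FPKM in all 27 libraries.

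NAC21/22-like, related to Arabidopsis NAC1 that relays auxin signals in root branching, had shifts with leaf removal between consecutive stages in both directions. At E-L 36 the groups overlapped, with 12.3, 17.7 and 15.4 FPKM in LR-V berries, 10.1, 18.02 and 16.97 in LM-V berries, and 16.7, 15.2 and 9.09 in C. At E-L 37 it had 7.54, 10.5 and 8.99 FPKM in LR-V berries, 16.4, 12.2 and 18.9 in LM-V berries, and 18.4, 23.8 and 22.05 in C. LR-V lay below both other groups, and its level of 9.01 ± 1.49 FPKM was 0.421 times the 21.4 ± 2.76 in C (log2 fold change -1.16 ± 0.22, adjusted p = 0.00344). This call passed under all 13 alternatives, with adjusted p between 0.00362 and 0.0255. LM-V was between the other groups (-0.42 ± 0.22 against C, adjusted p = 0.44).

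At E-L 38 the order was reversed, with 26.9, 18.8 and 30.2 FPKM of NAC21/22-like in LR-V berries, 17.2, 19.1 and 16.1 in LM-V berries, and 12.2, 11.4 and 11.6 in C. All treated libraries were above all C libraries. LR-V averaged 25.3 ± 5.89 FPKM, against 11.8 ± 0.40 in C (log2 fold change 1.02 ± 0.22, adjusted p = 0.00239), and LM-V averaged 17.5 ± 1.51 (0.53 ± 0.22, adjusted p = 0.138). The LR-V adjusted p ran between 0.000824 and 0.257. It was 0.257, with a log2 fold change of 0.63, without the seed-rich libraries, whose NAC21/22-like values are the 2 higher ones. Pooled over all 27 libraries, the within-group r of NAC21/22-like with the seed transcripts was -0.12, which cannot speak for LR-V at E-L 38 alone. The part of seed RNA in this call was not tested.

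The LR-V effect on NAC21/22-like rose by 2.18 ± 0.31 on the log2 scale between E-L 37 and E-L 38 (adjusted p = 0.000198), under all 19 alternatives (6.09e-05 to 0.0294). Between E-L 36 and E-L 37 it fell by 1.33 (SE 0.31, adjusted p = 0.0164). That adjusted p ran between 0.0108 and 0.0582, and it missed the threshold without LR-V replicate B (0.0516) or C replicate C (0.0502) of E-L 36 or LR-V replicate A of E-L 37 (0.0582). The 2 contrasts share the E-L 37 libraries and were added after the data had been seen. In LM-V the same contrasts were 0.95 ± 0.31 (adjusted p = 0.0894) and -0.55 ± 0.31 (adjusted p = 0.679), which did not pass. Whether the LR-V and LM-V patterns over stages differ was not tested.

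Among the genes numbered like membrane-bound NACs, the NAC68-like gene VIT_202s0012g01040 was the clearest at E-L 36. It had 8.30, 7.16 and 9.86 FPKM in LR-V berries, 12.4, 12.1 and 11.5 in LM-V berries, and 14.3, 13.5 and 16.6 in C, so the 3 groups did not overlap. LR-V averaged 8.44 ± 1.36 FPKM, which was 0.57 times the 14.8 ± 1.59 in C (log2 fold change -0.75 ± 0.11, adjusted p = 0.00033), and the call passed under all 13 alternatives (0.000189 to 0.0321). LM-V, at 11.99 ± 0.459 FPKM, differed from C by -0.28 ± 0.11 (adjusted p = 0.601), and LR-V differed from LM-V by -0.47 ± 0.11 (adjusted p = 0.119).

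At the later stages VIT_202s0012g01040 lay between 13.8 and 18.5 FPKM in all groups, and LR-V differed from C by 0.05 at E-L 37 (95% interval -0.18 to 0.28) and by -0.06 at E-L 38 (-0.29 to 0.18). Its LR-V effect was 0.69 ± 0.16 higher at E-L 38 than at E-L 36 (adjusted p = 0.00792) and 0.80 ± 0.16 higher at E-L 37 than at E-L 36 (adjusted p = 0.00602). Over the alternatives these adjusted p ran between 0.00338 and 0.0503 (0.0503 with only the compared groups in the fit) and between 0.0025 and 0.0514 (0.0514 without the seed-rich libraries, where the change was 0.72). The E-L 36 libraries serve in both contrasts.

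The NAC68 gene VIT_214s0068g01490 carries the number of an Arabidopsis membrane-tethered factor tied to cell division. It followed the seed transcripts more closely than the other tested NAC genes. At E-L 37 it had 7.44, 20.6 and 14.7 FPKM in LR-V berries, 10.7, 16.1 and 7.95 in LM-V berries, and 8.95, 4.54 and 3.24 in C. The 3 highest values, LR-V replicates B and C and LM-V replicate B, are the 3 seed-rich libraries of that stage. LR-V averaged 14.2 ± 6.58 FPKM, against 5.58 ± 2.99 in C (log2 fold change 1.20 ± 0.33, adjusted p = 0.036), with overlapping groups. The adjusted p ran between 0.0115 and 0.483. It was 0.0819 with the seed transcripts as a covariate (log2 fold change 0.75), 0.483 without the seed-rich libraries (0.45) and 0.181 with only the compared groups in the fit, and it missed the threshold without LR-V replicate B (0.109) or C (0.144) or C replicate B (0.119) or C (0.172).

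Within groups, r between VIT_214s0068g01490 and the seed transcripts was 0.75 over 27 libraries, which share their group means, against 0.49 for NAC94 and 0.36 for NAC42, the next highest. At E-L 36 it had 25.8, 18.1 and 19.6 FPKM in LR-V berries, 18.9, 15.7 and 16.3 in LM-V berries, and 17.3, 13.3 and 12.5 in C, and at E-L 38 it had 3.71, 1.53 and 4.39 in LR-V berries, 1.23, 0.71 and 0.69 in LM-V berries, and 1.58, 1.99 and 2.37 in C. The highest value of each stage was in a seed-rich LR-V library. LR-V was above LM-V at E-L 38 (3.21 ± 1.49 in LR-V and 0.877 ± 0.306 FPKM in LM-V, log2 fold change 1.11 ± 0.33, adjusted p = 0.0414). That adjusted p ran between 0.00769 and 0.721, was 0.721 without the seed-rich libraries (log2 fold change 0.44) and 0.0968 with the covariate (0.71), and missed the threshold in 10 of 13 alternatives, among them those without LR-V replicate A (0.137) or C (0.229) or LM-V replicate A (0.0688), B (0.101) or C (0.119).

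**Figure D3:**
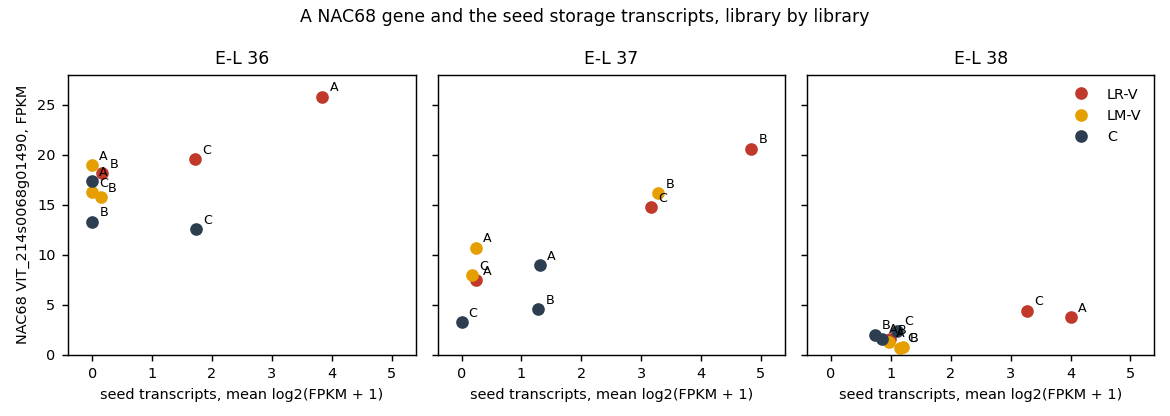
FPKM of the NAC68 gene VIT_214s0068g01490 (vertical axis) against the mean log2(FPKM + 1) of a 2S albumin and a vicilin gene (horizontal axis), with 1 panel per stage and 1 point per library, lettered by replicate. At E-L 37 the 3 libraries above 3 on the horizontal axis have 20.6, 16.1 and 14.7 FPKM, and the other 6 have between 3.24 and 10.7.

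The LM-V effect on VIT_214s0068g01490 fell by 1.65 (SE 0.46) between E-L 37 and E-L 38 (adjusted p = 0.0474), a contrast added after the data had been seen. It passed under 6 of 19 alternatives, with adjusted p between 0.00591 and 0.129. It missed the threshold with no filter on low values (0.0644), with the replicate block (0.0607), with only the compared groups in the fit (0.0523), without LM-V replicate A (0.0768) or B (0.129) or C replicate B (0.101) or C (0.127) of E-L 37, and without LM-V replicate A (0.0599), B (0.0959) or C (0.0921) or C replicate A (0.0625), B (0.0814) or C (0.103) of E-L 38.

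The second NAC68 gene, VIT_218s0001g10250, changed sign with stage in LR-V. It had 11.2, 10.2 and 8.75 FPKM in LR-V at E-L 36, 7.84, 7.97 and 8.18 in LM-V, and 7.06, 6.98 and 5.96 in C, with no overlap between the groups. At E-L 37 it had 6.80, 9.78 and 5.69 FPKM in LR-V berries, 7.98, 7.60 and 9.28 in LM-V berries, and 10.1, 11.1 and 9.04 in C. At E-L 38 it had 12.4, 10.5 and 15.2 FPKM in LR-V berries, 13.5, 11.3 and 10.0 in LM-V berries, and 10.7, 10.4 and 6.94 in C. LR-V against C was 0.53 ± 0.17, -0.42 ± 0.17 and 0.41 ± 0.17 at the 3 stages, and none passed (adjusted p = 0.069, 0.148 and 0.0937).

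The change in its LR-V effect did pass, at -0.95 ± 0.24 between E-L 36 and E-L 37 (adjusted p = 0.0244) and 0.83 ± 0.24 between E-L 37 and E-L 38 (adjusted p = 0.0326). For VIT_218s0001g10250 these adjusted p ran between 0.00406 and 0.0814 and between 0.00637 and 0.328. The first missed the threshold without LR-V replicate A (0.0649) or B (0.0547) or C replicate C (0.0675) of E-L 36, or LR-V replicate A (0.0693) or C (0.0814) or C replicate B (0.0682) of E-L 37. The second missed it without the seed-rich libraries (0.328, at a change of 0.68), with only the compared groups in the fit (0.109), without LR-V replicate A (0.0758) or C (0.101) or C replicate A (0.057) or B (0.0878) of E-L 37, and without LR-V replicate A (0.0596) or C (0.106) or C replicate C (0.0921) of E-L 38.

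The NAC78-like gene VIT_213s0019g05240, related to an Arabidopsis factor that raises flavonoid gene expression in strong light, was abundant and close between groups. It had 116, 98.7 and 112 FPKM in LR-V at E-L 36, 134, 107 and 119 in LM-V, and 106, 132 and 130 in C. At E-L 37 it had 161, 142 and 149 in LR-V berries, 156, 151 and 169 in LM-V berries, and 153, 156 and 156 in C. At E-L 38 it had 190.4, 203 and 194 in LR-V berries, 207, 203 and 218 in LM-V berries, and 181, 184 and 178 in C. Both treated groups lay above C at harvest, but LR-V against C was 0.11 (95% interval -0.06 to 0.29) and LM-V against C was 0.21 (0.03 to 0.38; adjusted p = 0.129), and neither passed. Its low neighbour VIT_213s0019g05230 stayed between 1.67 and 3.37 FPKM. The NAC68-like gene VIT_204s0044g01500 reached 1 FPKM in 4 libraries, with its maximum of 3.88 in the seed-rich LR-V replicate A at E-L 36, and stood at 0.64, 0.80 and 0.42 FPKM in LR-V berries, 0.21, 0 and 0.21 in LM-V berries, and 0.20, 0.19 and 0.21 in C at E-L 38. It passed no test.

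NAC8-like is related to Arabidopsis SOG1, which directs the response to DNA damage. At E-L 38 it had 6.30, 7.59 and 7.48 FPKM in LR-V berries, 4.33, 4.89 and 5.44 in LM-V berries, and 4.49, 6.67 and 5.05 in C. LR-V lay above LM-V in every library, and 7.12 ± 0.715 FPKM in LR-V against 4.89 ± 0.555 in LM-V gave a log2 fold change of 0.47 ± 0.13 (adjusted p = 0.0375), while LR-V against C was 0.35 ± 0.13 (adjusted p = 0.0724). The LR-V against LM-V call had adjusted p between 0.0254 and 0.353. It missed the threshold under median-of-ratios scaling (0.0589), with the seed covariate (0.0778), without the seed-rich libraries (0.353, at a log2 fold change of 0.55), with only the compared groups in the fit (0.142), and without LR-V replicate B (0.0764) or C (0.162) or LM-V replicate A (0.162) or B (0.0743). NAC94 had 3.38, 1.62 and 0.62 FPKM in LR-V at E-L 36, 1.04, 1.20 and 1.34 in LM-V, and 1.07, 1.51 and 1.28 in C, and passed no test.

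Set directly against each other, the treatments gave calls among the NAC genes at harvest and at neither earlier stage. At E-L 38, 3 of 14 genes passed between LR-V and LM-V (NAC72 lower, VIT_214s0068g01490 and NAC8-like higher in LR-V), beside 7.45% of all tested genes, and each missed the threshold without the seed-rich libraries, which leaves 1 LR-V library at that stage. The log2 fold change was then -0.75 for NAC72 and 0.55 for NAC8-like, both farther from 0 than with all libraries, and 0.44 for VIT_214s0068g01490, nearer to 0. At E-L 36, 0 of 14 passed (3 at an unadjusted p under 0.05 in limma), beside 0.0354% of all, and at E-L 37, 0 of 14 passed (1 at an unadjusted p under 0.05), beside 0% of all.

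Across stages, the LR-V effect differed between E-L 36 and E-L 38 for 2 of 14 genes (NAC72 and VIT_202s0012g01040), beside 8.35% of all tested genes, between E-L 36 and E-L 37 for 4 (these and NAC21/22-like and VIT_218s0001g10250), beside 4.54%, and between E-L 37 and E-L 38 for 2 (NAC21/22-like and VIT_218s0001g10250), beside 7.7%. The LM-V effect differed between E-L 36 and E-L 38 for 0 of 14 in limma (also 0 at an unadjusted p under 0.05), beside 3.1%, between E-L 36 and E-L 37 for 0 (2 at an unadjusted p under 0.05), beside 0.0405%, and between E-L 37 and E-L 38 for 1 (VIT_214s0068g01490), beside 3.81%.

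Some NAC genes also moved with ripening itself, which was compared within each treatment. Depending on the comparison, 21.4% to 50% of the 14 genes passed, near the 27.6% to 38.7% of all tested genes. In C, 6 of 14 passed between E-L 36 and E-L 37 (5 higher and 1 lower at E-L 37), beside 37.5% of all tested genes, and 3 of 14 between E-L 37 and E-L 38 (all lower at E-L 38), beside 28.5%. In LR-V 6 of 14 passed between E-L 36 and E-L 37 (3 higher, 3 lower), beside 32.4%, and 6 between E-L 37 and E-L 38 (4 higher, 2 lower), beside 31.2%. In LM-V the counts were 3 (all higher), beside 27.6%, and 7 (4 higher, 3 lower), beside 38.7%. Part of the early rise is common to the table, since the median of all genes rose by 0.20 on the log2 scale between E-L 36 and E-L 37 in C and by 0.13 in LM-V. After median-of-ratios scaling, which takes these medians to 0.01 and 0, the early counts became 1 higher and 3 lower in C, 1 higher and 2 lower in LM-V and 3 higher and 5 lower in LR-V.

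**Figure D4:**
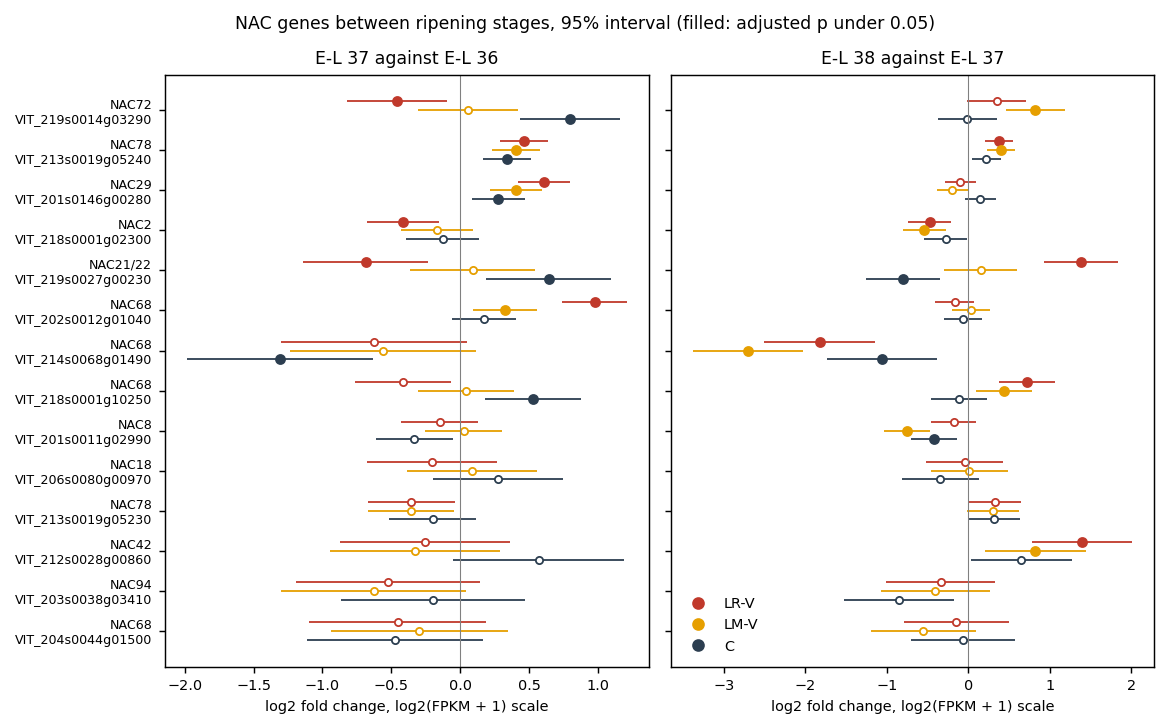
Log2 fold change on the log2(FPKM + 1) scale (horizontal axis) of the 14 tested NAC genes between consecutive stages, E-L 37 against E-L 36 on the left and E-L 38 against E-L 37 on the right, for LR-V, LM-V and C; lines are 95% intervals and filled points passed limma's test. NAC21/22 in LR-V is at -0.69 on the left and 1.38 on the right, and in C at 0.64 and -0.81. Titles and labels leave out "like", and the 2 panels have different horizontal ranges.

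The mean of the NAC78-like gene VIT_213s0019g05240 climbed through ripening in LR-V, LM-V and C berries. At E-L 36, 37 and 38 its mean was 109, 151 and 196 FPKM after LR-V, 120, 159 and 209 FPKM after LM-V, and 123, 155 and 181 FPKM in C. The early rise was 0.46, 0.41 and 0.34 in LR-V, LM-V and C (adjusted p = 0.000206, 0.00098 and 0.00275), and in C it did not pass after median-of-ratios scaling (0.11, adjusted p = 0.37). The late rise of 0.38 in LR-V (adjusted p = 0.0015) and that of 0.40 in LM-V (adjusted p = 0.000648) passed, and it was 0.22 in C (adjusted p = 0.052, or 0.0161 after that scaling). Without the seed-rich libraries the LR-V late rise was 0.33, with an adjusted p of 0.184, in a range of 0.00155 to 0.184.

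NAC29 rose between E-L 36 and E-L 37 in every treatment. The rise was 0.61 ± 0.09 in LR-V (adjusted p = 2.84e-05), 0.41 ± 0.09 in LM-V (0.00207) and 0.28 ± 0.09 in C (0.0202). Median-of-ratios scaling left the LR-V call and ended those in LM-V (0.0662) and C (0.764). In C the call also missed the threshold without replicate A of E-L 36 (0.0741) or replicate A (0.0609) or C (0.0719) of E-L 37, in a range of 0.0126 to 0.764. No late change of NAC29 passed in any group, at -0.10 in LR-V (95% interval -0.29 to 0.09, adjusted p = 0.434), -0.20 in LM-V (-0.39 to -0.01, adjusted p = 0.0913) and 0.15 in C (-0.04 to 0.34, adjusted p = 0.249). The E-L 38 libraries of LM-V were nevertheless all below those of E-L 37, and those of C all above.

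NAC72 changed between stages in each treatment. Between E-L 36 and E-L 37 it rose by 0.80 ± 0.17 in C (adjusted p = 0.00107) and fell by 0.46 in LR-V (SE 0.17, adjusted p = 0.0474), and it changed by 0.06 in LM-V (95% interval -0.31 to 0.42). The C rise passed under all 13 alternatives. The LR-V fall passed under 5 of 13, with adjusted p between 0.00571 and 0.25, and missed the threshold with no filter (0.0639), with the replicate block (0.0549), with only the compared groups (0.102), and without LR-V replicate A (0.114), B (0.12) or C (0.0543) of E-L 36 or LR-V replicate A (0.25) or C (0.121) of E-L 37. Between E-L 37 and E-L 38 NAC72 rose by 0.82 ± 0.17 in LM-V (adjusted p = 0.000757), under all 13 alternatives, and in C the change was -0.01 (95% interval -0.38 to 0.35). The test of that difference, the LM-V effect at E-L 38 minus E-L 37, gave 0.83 ± 0.25 and did not pass (adjusted p = 0.063), nor did E-L 37 minus E-L 36 (-0.74 ± 0.25, adjusted p = 0.335).

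NAC21/22-like went opposite ways in LR-V and C. In LR-V it fell by 0.69 between E-L 36 and E-L 37 (adjusted p = 0.019) and rose by 1.38 between E-L 37 and E-L 38 (adjusted p = 5.34e-05). In C it rose by 0.64 (adjusted p = 0.0241) and then fell by 0.81 (adjusted p = 0.0079). Both late changes passed under all 13 alternatives. The early change in C missed the threshold after median-of-ratios scaling (0.153) and without C replicate C of E-L 36 (0.177) or C replicate B (0.0867) or C (0.0638) of E-L 37, and the one in LR-V without LR-V replicate B (0.0888) or C (0.0506) of E-L 36 or LR-V replicate A of E-L 37 (0.0827). In LM-V NAC21/22-like stood at 15.0 ± 4.29, 15.8 ± 3.38 and 17.5 ± 1.51 FPKM over the 3 stages, with no call.

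VIT_214s0068g01490 declined toward harvest in every treatment, to 3.21, 0.877 and 1.98 FPKM on average in LR-V, LM-V and C at E-L 38. Its late change was -1.83 in LR-V (adjusted p = 0.000202), -2.71 in LM-V (1.16e-06) and -1.06 in C (0.0182), all on the log2 scale. The LR-V and LM-V changes passed under all 13 alternatives, and that in C missed the threshold without C replicate A of E-L 37 (0.13) or of E-L 38 (0.0696). Its early change passed in C (-1.31, adjusted p = 0.00314, under all 13 alternatives). NAC2-like also declined, with an early change of -0.42 in LR-V (adjusted p = 0.0149) and late changes of -0.48 in LR-V (0.00635) and -0.54 in LM-V (0.00169). Its mean in C fell too, from 25.9 FPKM at E-L 36 to 23.5 at E-L 37 and 19.2 at E-L 38, with no call. For NAC2-like the early LR-V call missed the threshold without LR-V replicate A (0.0742) or C (0.0716) of E-L 37, and the late one with only the compared groups (0.0892) and without LR-V replicate B of E-L 37 (0.0527) or E-L 38 (0.0576). NAC8-like changed late by -0.75 in LM-V (0.00012) and by -0.42 in C (0.0223), and the C call missed the threshold with only the compared groups (0.0857), without C replicate B (0.0949) or C (0.083) of E-L 37, and without C replicate A (0.128) or C (0.0686) of E-L 38.

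VIT_202s0012g01040 was 0.98 ± 0.11 higher at E-L 37 than at E-L 36 in LR-V (adjusted p = 1.14e-06, under all 13 alternatives) and 0.33 ± 0.11 higher in LM-V (adjusted p = 0.0331). The LM-V call missed the threshold after median-of-ratios scaling (0.314), with only the compared groups (0.0638), and without LM-V replicate B (0.0667) or C (0.0972) of E-L 36 or LM-V replicate A (0.105) or C (0.0979) of E-L 37. VIT_218s0001g10250 rose early in C (0.53, adjusted p = 0.0156) and late in LR-V (0.72, 0.00225) and LM-V (0.44, 0.0431). The call in C was lost after median-of-ratios scaling (0.118) and without C replicate C of E-L 36 (0.065) or C replicate B of E-L 37 (0.0658). The one in LR-V was lost without the seed-rich libraries (0.166, at a rise of 0.56), and the one in LM-V with no filter (0.0592), without the seed-rich libraries (0.0808, at a rise of 0.38), and without LM-V replicate A (0.103) or B (0.135) of E-L 37 or A (0.184) or B (0.0762) of E-L 38.

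NAC42 was 1.39 ± 0.30 higher at E-L 38 than at E-L 37 in LR-V (adjusted p = 0.00107), and 0.82 ± 0.30 higher in LM-V (adjusted p = 0.0329). The LR-V call was lost without the seed-rich libraries (0.415, at a rise of 0.46). The LM-V call was lost without LM-V replicate A (0.0715) or B (0.0915) of E-L 37 or LM-V replicate A (0.0869), B (0.0617) or C (0.0622) of E-L 38. In C it stood at 1.64 ± 0.159 FPKM at E-L 37 and at harvest at 3.22 ± 0.978 FPKM, a difference that did not pass.

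The 11 members below the filter were at or near 0, and their values are listed without reading absence from them. NAC8 (VIT_212s0028g03050) reached 1 FPKM in 1 library, with 0.64, 0.20 and 0.42 in LR-V at E-L 38, 0.42, 0.60 and 0.84 in LM-V, and 1.67, 0.57 and 0.73 in C, and it was between 0 and 0.40 in all libraries of the earlier stages. With no filter on low values, which takes in 27473 genes, its change between E-L 37 and E-L 38 was 0.36 ± 0.16 in LR-V (adjusted p = 0.113), 0.43 ± 0.16 in LM-V (adjusted p = 0.042) and 0.74 ± 0.16 in C (adjusted p = 0.00164). The late change of the LR-V or LM-V effect did not pass (adjusted p = 0.391 and 0.601). NAC21/22 (VIT_207s0005g03610) had at most 0.75 FPKM, NAC100 (VIT_204s0008g02710) at most 0.39, and NAC7 (VIT_218s0072g01060), whose Arabidopsis relative directs xylem vessel formation, at most 0.39. NAC74 (VIT_217s0053g00740) had at most 0.34 and NAC90 (VIT_208s0007g02940) at most 0.15. Of 5 NAC42-like genes, VIT_219s0027g00860, VIT_219s0027g00870, VIT_219s0027g00910 and VIT_219s0027g00920 had at most 0.62, 0.35, 0.20 and 0.27 FPKM, and VIT_201s0026g02360 is listed at 0 in all 27 libraries. These 5 share 2 closest proteins, so the division of reads between them is uncertain.

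Gene groups that NAC factors are known to act on in other plants were read as well. Of 3 chlorophyll breakdown genes, all tested, 1 passed against C in 1 of the 6 comparisons, LM-V at E-L 38, where 9.5% of all tested genes passed: NYC1 (VIT_211s0016g03890), the chlorophyll b reductase, was 68.2 ± 2.98 FPKM in LM-V berries, against 55.2 ± 1.79 in C (0.30, adjusted p = 0.0262). Between the treatments at that stage, NYC1 in LR-V had 56.4 ± 5.08 FPKM (LR-V against LM-V -0.27, adjusted p = 0.0499). Of 16 xylem wall and cell death genes 5 were tested, and 1 passed against C, in LR-V at E-L 38, a share near the 17.8% of all tested genes there: a cellulose synthase A4 gene (VIT_205s0020g05060) at 27.2 ± 1.78 FPKM in LR-V berries, against 17.7 ± 2.53 in C (0.60, adjusted p = 0.0417). The median log2 fold change of the xylem genes in LR-V at E-L 38 was 0.24, beside 0.02 over all tested genes, and that of the chlorophyll breakdown genes in LM-V was -0.20, beside -0.02, while NYC1 itself was higher.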

How the data were processed

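The authors sequenced 50-bp single reads, aligned them to grapevine genome V2 (Bowtie2 2.2.5 by the submitters' processing notes; up to 2 mismatches allowed) and deposited 1 FPKM value per gene and library. Values carry 2 decimals, and the software behind them was not given in the sources used here. Identifiers, closest proteins and symbols were taken from the table, and 22 of 25 members matched a RefSeq gene by protein accession.

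Genes that reached FPKM 1 in 3 or more libraries entered the test, as log2(FPKM + 1), with limma 3.58.1 (intensity trend, robust empirical Bayes; statmod 1.5.0, R 4.3.3) in 1 model of 9 group means. All tests were two-sided, with Benjamini-Hochberg adjustment over all 19761 genes and a threshold of 0.05. FPKM are not counts, so no count test was run. NOISeq, used by the study, was rebuilt as an alternative for the treatment comparisons (fold change of at least 2, probability of at least 0.8). Fold changes on this scale understate those of low genes. Members, gene lists and contrasts were chosen with earlier results of these data known.

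Genes were named where they passed a comparison or interaction (up to 8 per direction), were among the 6 of highest mean, or were among the 3 that followed the seed transcripts most closely. Other members are named to account for all 25. Alternatives were a pseudocount of 0.25, no filter, median-of-ratios scaling, the replicate letter as a block, the seed transcripts as a covariate, only the compared groups in the fit, and leaving out each library in turn or the 6 seed-rich ones. The consecutive-stage contrasts of treatment effects were added after seeing the data.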

Additional observations from a re-analysis of the deposited data

Results flagged for a closer look

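The results below stood out because the LR-V or LM-V effect, the log2 difference from C, differed between stages by limma's interaction test. Groups of 3 are too small to look for single outlying samples. Contrasts between consecutive stages were chosen after seeing the data.

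The LR-V effect on NAC72 (VIT_219s0014g03290) changed by -0.90 between E-L 36 and E-L 38 (adjusted p = 0.0264) and by -1.26 between E-L 36 and E-L 37 (0.00582). On VIT_202s0012g01040 it changed by 0.69 (0.00792) and 0.80 (0.00602) over the same stages. On NAC21/22-like (VIT_219s0027g00230) it changed by -1.33 between E-L 36 and E-L 37 (0.0164) and by 2.18 between E-L 37 and E-L 38 (0.000198). On VIT_218s0001g10250 it changed by -0.95 (0.0244) and then 0.83 (0.0326). The LM-V effect on VIT_214s0068g01490 changed by -1.65 between E-L 37 and E-L 38 (0.0474).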

How the results depend on the processing

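No called NAC gene changed direction under any alternative. Leaving out single libraries kept the gene call in 267 cases and lost it in 93, and the pseudocount of 0.25 kept all 51. Calls lost were 12 with only the compared groups in the fit and 7 with median-of-ratios scaling. They were 4 with no filter, 3 with the replicate block and 3 with the seed covariate. Removing the seed-rich libraries also lost calls, with 1 LR-V library left at E-L 37 and 1 at E-L 38. With the rebuilt NOISeq rule the number of NAC genes picked was 0 at E-L 36 and 1 at E-L 38 for LR-V, and for LM-V it was 1 at E-L 37 and 0 at harvest. With the seed covariate the number of NAC genes called was 1 for LR-V at E-L 37, 2 for LM-V at E-L 38 and 1 for LR-V against LM-V at E-L 38. Without the 6 seed-rich libraries it was 1 for LR-V and 2 for LM-V at E-L 38, 0 for LR-V against LM-V, 5 for the late change in C, 3 for that in LR-V and 1 for the LR-V effect between E-L 37 and E-L 38. With only the compared groups in the fit the number was 1 for LR-V at E-L 37, 3 for LM-V and 0 for LR-V against LM-V at E-L 38. It was 5 for the late change in C, and for the LR-V effect 1 between E-L 36 and E-L 38 and 1 between E-L 37 and E-L 38. For the LM-V effect between E-L 37 and E-L 38 it was 3. The main call there, VIT_214s0068g01490, was not among them (limma adjusted p = 0.0523). Nor was NAC8-like among those for the late change in C (0.0857). With no filter the count for the LM-V effect between E-L 37 and E-L 38 was 0. The causes were not tested.

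With the replicate block the count for the LM-V effect between E-L 37 and E-L 38 was 0 as well. The other counts, apart from those left out above, stayed within 1.5 times the main ones. In none of 15 comparisons were the correlations between deviations of same-letter samples over 0.1 for all 3 letters. This does not exclude pairing, since the stages of a treatment may have been sampled from the same vines. Shared vines were not tested, and the main model takes the libraries as independent.

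Leaving out single libraries gave 2 to 3 called genes for LR-V at E-L 36, 1 to 3 at E-L 37 and 2 to 3 at E-L 38, 0 to 0, 0 to 0 and 1 to 1 for LM-V, and 0 to 1, 0 to 0 and 0 to 2 for LR-V against LM-V. For E-L 36 to E-L 37 it gave 4 to 6 in C, 3 to 8 in LR-V and 2 to 3 in LM-V, and for E-L 37 to E-L 38 1 to 4, 5 to 6 and 5 to 7. For the LR-V effect it gave 1 to 3 (E-L 36 to 38), 2 to 4 (36 to 37) and 1 to 3 (37 to 38), and for the LM-V effect 0 to 0, 0 to 0 and 0 to 1. Depth is unknown, and low genes such as NAC94, whose smallest value above 0 is 0.11 FPKM, move in steps.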
